A study of Mus musculus with 12 samples.

Results

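Ttn encodes titin, the giant elastic protein that spans the sarcomere of striated muscle from the Z-disc to the M-band. The AGO2-bound RNA of this gene was described in tibialis anterior (TA) muscle of wild-type (WT) mice and of mice without the microRNA miR-486 (mir-486 KO). Its members were all listed AGO2 peaks, with no threshold, that overlapped Ttn on its own strand by at least 1 nt. Ttn (ENSMUSG00000051747.14) lies on the minus strand of GRCm38 at chr2:76703980-76982547. In set 1, Ttn held 664 of the 92451 listed peaks of the WT library and 843 of the 119859 of the mir-486 KO library. In set 2 it held 1411 of 244814 in WT and 1464 of 256219 in mir-486 KO. The opposite strand of the same interval, which carries the annotated antisense gene Gm13938, held 0 listed peaks in all 8 lists.

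The study used chimeric eCLIP, in which AGO2 is cross-linked to RNA in the muscle and immunoprecipitated, and the bound fragments are sequenced. All muscles came from male mice aged 6 months, and the KO carries a CRISPR deletion of the mir-486 hairpin within the gene Ank1. By the labels WT mice were C57BL/6 and mir-486 KO mice FVB N/J, while the study's methods describe a shared C57BL/6J background, and genotype and labelled strain cannot be told apart. Each of 2 library sets, here set 1 and set 2, held 1 total AGO2 library per genotype, each with its own size-matched input. The deposited design text names 3 samples per genotype in one passage and 5 in another, in duplicate, but no source says how these relate to the 2 sets or whether the sets came from separate mice, and the SD of the sets need not reflect differences among mice. A two-sided exact permutation test of 2 libraries against 2 cannot go below p = 0.333, for which reason the genotypes were not tested and values per library are given instead.

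At the Mir486 hairpin, the WT libraries had 2 listed peaks in set 1 and 4 in set 2, and the mir-486 KO libraries had 0 in each set. Of a list of 32 genes for partners of titin and for sarcomere proteins, 31 or 32 had a listed peak in each library. The sets differed in the slow myosin gene Myh7, which had 53 peaks (WT) and 51 peaks (mir-486 KO) in set 1 against 1 and 0 in set 2. Its part in the results was not tested.

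Titin is made mostly of repeated immunoglobulin and fibronectin type III domains, and its I-band holds an extensible region rich in proline. Its transcript is spliced differently in heart and skeletal muscle, and skeletal titin is of the long N2A type. AGO2 is guided to RNA by a microRNA, whose seed (bases 2 to 8) pairs with a complementary word in the target. Most studied targets have this word in the 3′ UTR, but AGO2 can also be cross-linked to coding sequence. miR-133, miR-1 and miR-206 are muscle-enriched microRNAs, let-7, miR-29 and miR-30 are widely expressed, and miR-486 is the microRNA removed in the KO.

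The strongest AGO2 sites of Ttn lay in coding exons, and many of them held the word complementary to the seed of miR-133. Mature sequences from RefSeq are shown first, with the seed in capitals. The mature sequences of miR-133a-3p, miR-1a-3p and miR-486a-5p are named only. miR-133a shares its seed with miR-133b, and miR-1 shares its seed with miR-206.
miR-133b-3p: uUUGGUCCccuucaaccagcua
miR-206-3p: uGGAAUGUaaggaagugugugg
let-7a-5p: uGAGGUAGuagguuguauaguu
The 6 Ttn sites with the highest mean log2 over input among the miR-133 matches follow, as the transcript strand of GRCm38, with the 7-nt word in capitals. They were chosen after their values were seen.
exon 334, word at chr2:76718447-76718453: agtagatcaacgtgaatGGACCAAatgt
exon 325, word at chr2:76723605-76723611: agtgaagaacgctagtgGGACCAAgtcc
exon 335, word at chr2:76718075-76718081: attcccagtatgtaaatGGACCAAggaa
exon 325, word at chr2:76723743-76723749: tgaacccaaaatcatctGGACCAAagga
exon 287, word at chr2:76766491-76766497: attcccagaggttgcctGGACCAAagac
exon 231, word at chr2:76798145-76798151: caatgtgacactgaagtGGACCAAaaat
Exon 334 also held the let-7 word, and exon 326 held the word shared by miR-1 and miR-206. These sites are shown because both lay in exons with the highest values.
exon 334, word at chr2:76718394-76718400: agtataccctaacacacCTACCTCaggg
exon 326, word at chr2:76723268-76723274: tcaagaacaatgaatacACATTCCgcgt

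Listed peaks lay in most coding exons of Ttn, and a small number of sites were tall. The log2 over input of a peak is the authors' deposited fold of its reads in the immunoprecipitated library over its size-matched input. Its median over all listed Ttn peaks was 0.65 in the WT library of set 1, −0.64 in the mir-486 KO library of set 1, 0.09 in WT of set 2 and 0.14 in mir-486 KO of set 2. The medians of all listed peaks of the same libraries were 0.68, 0.38, 0.47 and 0.45, so Ttn as a whole lay under the median of its library in each of the 4. The mir-486 KO library of set 1 was lowest, with 24.1% of its Ttn peaks above input. The corresponding shares were 76.4% in WT of set 1, 54.4% in WT of set 2 and 57.0% in mir-486 KO of set 2. Of all listed peaks, 69.1% were above input in mir-486 KO of set 1, 77.8% in WT of set 1, 68.9% in WT of set 2 and 64.5% in mir-486 KO of set 2. Among the 385 genes with at least 20 exonic peaks in each library, Ttn ranked 215 from the highest median in WT of set 1, 349 in mir-486 KO of set 1, 203 in WT of set 2 and 185 in mir-486 KO of set 2.

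A peak is called enriched where the log2 over input was at least 3 and the deposited −log10 p at least 3. Ttn had 42 enriched peaks in WT of set 1, or 6.33% of its listed peaks, against 3.57% of all listed peaks of that library. It had 0 in mir-486 KO of set 1, where 0.848% of all listed peaks were enriched. In set 2 it had 10 in WT and 10 in mir-486 KO, or 0.709% and 0.683% of its peaks, against 1.42% and 1.23% of all listed peaks. The lowest enriched Ttn peak had a log2 of 3.01 in WT of set 1, and the highest peak short of the threshold had 2.95. In mir-486 KO of set 1 the highest Ttn peak had 2.59. With counts under 3 set to a floor of 3 per library, the log2 ratio of enriched peaks in WT to mir-486 KO was at least 3.81 in set 1 and 0.00 in set 2. The mean over the sets was 1.90 ± 2.69 (SD, n = 2 sets), so the genotypes differed by less than the spread between sets. Without set 1, whose WT count lay above and whose mir-486 KO count lay under those of set 2, the ratio was 0.00.

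**Figure D1:**
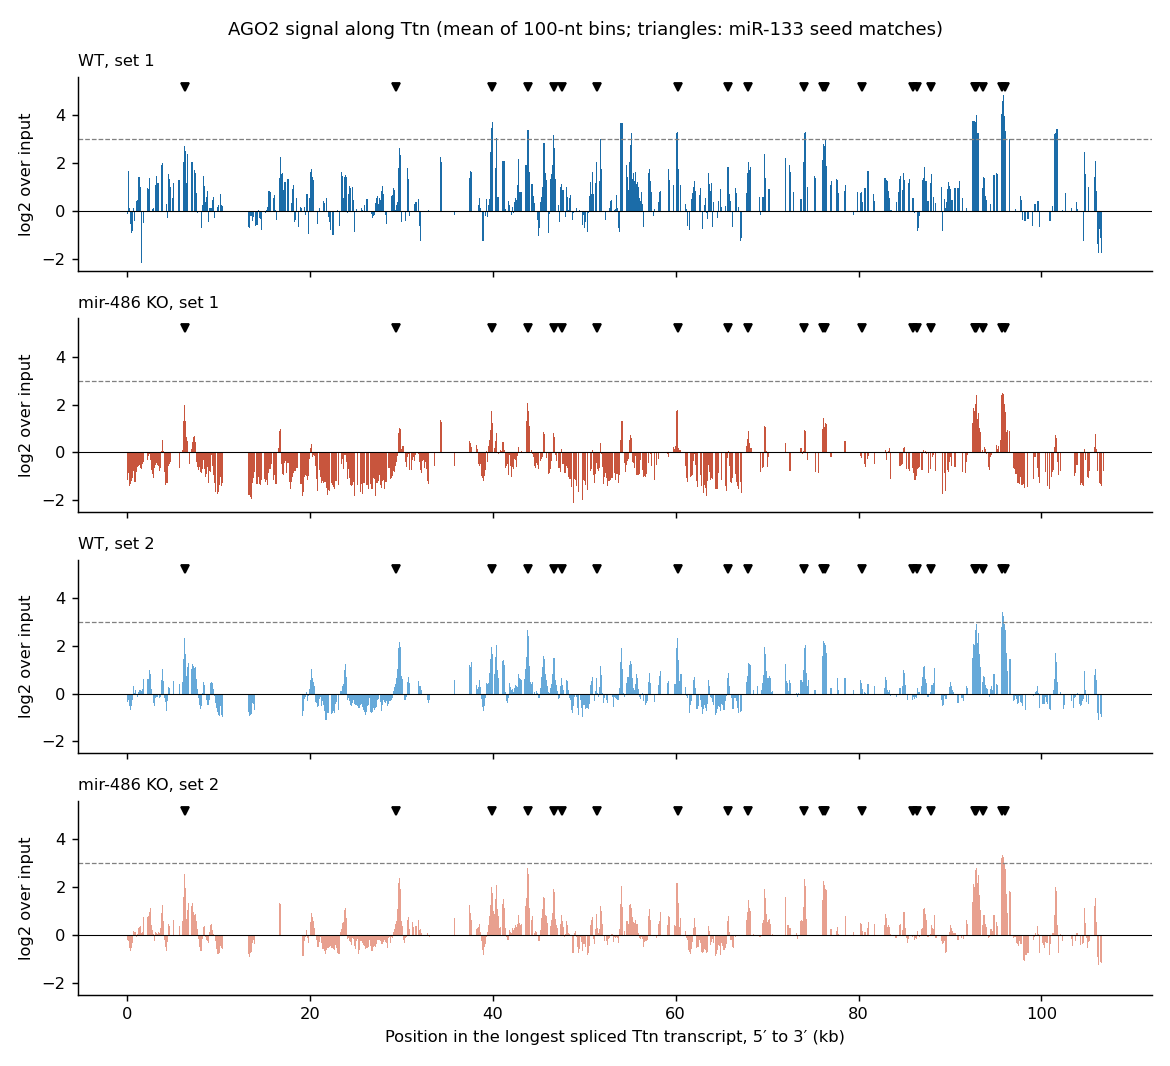
Mean log2 over input in bins of 100 nt along the spliced Ttn-203 transcript in each of the 4 libraries, with gaps where fewer than 20 bases of a bin lie in a listed peak. The dashed line is the threshold of 3 and the triangles mark the 22 miR-133 seed matches. The tallest bars, near exon 334, stand at the same place in all 4 panels, and in mir-486 KO of set 1 no bar reaches the threshold.

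Ttn-203, the longest annotated coding transcript, has 347 exons and 105639 coding bases, and its exon numbers are used here. The 42 enriched peaks of WT in set 1 lay in 20 exons. The enriched exonic peaks of set 2 fell in 4 of these exons in WT and 4 in mir-486 KO, and exons 287, 334 and 335 held an enriched peak in all 3 libraries. In mir-486 KO of set 1, where no peak passed, the highest peak of each of these exons ranged from 0.73 to 2.59, with a median of 1.71, while the median over all exons with a peak was −0.56. In set 2, where 4 of the exons held an enriched peak in each library, it ranged from 1.25 to 3.50 in WT, with a median of 2.21 against 0.27 over all exons with a peak. In mir-486 KO of set 2 it ranged from 1.37 to 3.66, with a median of 2.36 against 0.28. The highest peak of an exon also depends on how many listed peaks the exon holds. The 20 exons include exon 309, the longest, with 55 peaks in mir-486 KO of set 1, and the medians were not adjusted for this.

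Exon 334 (chr2:76718295-76718597, 303 nt) held the highest Ttn peak of every library. Its highest log2 over input was 4.97 in WT of set 1, 2.59 in mir-486 KO of set 1, 3.50 in WT of set 2 and 3.66 in mir-486 KO of set 2. All 5 of its listed peaks were enriched in WT of set 1 and in mir-486 KO of set 2, and 4 of 5 were enriched in WT of set 2. The highest peak lay at chr2:76718415-76718426 in WT of set 1 and at chr2:76718426-76718447 in WT of set 2. In mir-486 KO it lay at chr2:76718431-76718467 in set 1 and at chr2:76718435-76718447 in set 2. These peaks lie between the let-7 word and the miR-133 word of the exon or reach into the latter. The second highest peak also lay in exon 334 in 3 libraries, and in exon 325, at 2.48, in mir-486 KO of set 1.

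Next in the number of enriched peaks summed over the libraries were exons 325, 335, 287 and 326, the last with 3, as many as exons 28 and 244. Exon 325 (chr2:76723576-76723866), with 2 miR-133 words, reached 4.61 and 2.48 in WT and mir-486 KO of set 1 and 3.01 and 2.89 in set 2. Exon 335 (chr2:76717611-76718195) reached 4.08 and 2.07 in set 1 and 3.17 and 3.36 in set 2. Exon 287 (chr2:76765718-76768684) reached 3.96 and 1.88 in set 1 and 3.22 and 3.42 in set 2. Exon 326 (chr2:76723193-76723489) reached 4.16 and 2.31 in set 1 and 2.91 and 2.80 in set 2. In all 5 exons the order was WT of set 1 first and mir-486 KO of set 1 last, and the libraries of set 2 lay between them and close to each other. Exon 341 (chr2:76708776-76714212), 5437 nt long, held 2 enriched peaks in WT of set 1, up to 3.42, and reached 0.73 in mir-486 KO of that set.

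The longest coding exon, exon 309 (chr2:76736064-76753169), has 17106 nt and held 64 and 55 peaks in WT and mir-486 KO of set 1 and 95 and 101 in set 2. Its mean log2 over covered bases was 1.40, 0.20, 0.74 and 0.75 in the same order, above the mean of the whole transcript in each library (0.91, −0.45, 0.22 and 0.25). The first coding exon, exon 2 (chr2:76980092-76980195), reached 1.90 in WT of set 1 and lay at or under −0.23 in the other 3 libraries. Exon 1 reached 1.61 and −1.12 in set 1 and −0.28 and −0.16 in set 2, and the last exon, exon 347, reached 2.09 and 0.77 in set 1 and 1.05 and 2.15 in set 2. The coding sequence was also divided into 10 bins of equal length. The lowest means over covered bases lay in bins 2 and 3, from exon 46 to exon 131, in every library. Bin 2 had 0.37 in WT and −0.86 in mir-486 KO of set 1, and −0.23 and −0.09 in set 2. Bin 8, from exon 309 to exon 310, was highest in 3 libraries, with 0.16, 0.71 and 0.66 in mir-486 KO of set 1, WT of set 2 and mir-486 KO of set 2. In WT of set 1 it had 1.35, as did bin 10. These means leave out bases with no listed peak. Listed peaks covered 25.3% and 19.7% of bin 8 in WT and mir-486 KO of set 1, and 25.2% and 28.7% in set 2. In the same order they covered 25.4%, 22.9%, 33.1% and 33.5% of exon 309, against 38.6%, 49.9%, 58.5% and 59.1% of the whole transcript.

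The profile along the exons was similar in 3 of the libraries. Over exons of at least 100 nt covered in both libraries, the mean log2 per exon of mir-486 KO in set 1 had a Spearman correlation of 0.92 with WT of set 2 (207 exons) and 0.91 with mir-486 KO of set 2 (210 exons). The libraries of set 2 had 0.97 with each other. WT of set 1 had 0.72 with mir-486 KO of its own set and with WT of set 2, and 0.74 with mir-486 KO of set 2. These are correlations across exons of 1 transcript, which share length and base composition, and exons are not replicates. Over the same exons, the median difference of WT of set 1 was 0.61 from WT and 0.63 from mir-486 KO of set 2. That of mir-486 KO of set 1 was −0.75 and −0.81. Thus both libraries of set 1 lay apart from set 2 in level, in opposite directions, and WT of set 1 also in profile.

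Of the 42 enriched peaks of WT in set 1, 11 (26.2%) overlapped an enriched Ttn peak of WT in set 2, and all 10 of the latter overlapped one of the former. All 42 overlapped a listed Ttn peak of each other library. Of the 10 enriched peaks of mir-486 KO in set 2, 8 overlapped an enriched peak of WT in set 2 and 9 one of WT in set 1. No Ttn site was enriched in all 4 libraries, since mir-486 KO of set 1 had no enriched peak.

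Listed peaks were almost all in coding sequence. In WT and mir-486 KO of set 1, 97.7% and 98.8% of Ttn peaks were in CDS, and in set 2 98.6% and 98.5%. Introns cover 161743 nt of the gene and held 0 and 1 listed peaks in set 1 and 4 and 5 in set 2. This is 0.142% ± 0.200 of the WT peaks and 0.230% ± 0.158 of the mir-486 KO peaks (mean ± SD, n = 2 libraries each), which differ by less than the SD. Of these 10 peaks, 8 were at most 9 nt long and within 8 nt of an exon. The other 2 were those of WT in set 2 at chr2:76848376-76848502, with 0.13, and at chr2:76902386-76902493, with 1.33. At chr2:76865299-76865302, 2 nt from an exon, the log2 was 1.67 in mir-486 KO of set 1, and at chr2:76865299-76865301 it was 2.98 in WT of set 2. A peak of 9 nt at the same place (chr2:76865295-76865303) reached 2.61 in mir-486 KO of set 2. The 1 enriched Ttn peak outside coding sequence was a single base at chr2:76807053-76807053, 8 nt from an exon, with a log2 of 3.04 in mir-486 KO of set 2.

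The median log2 over input of Ttn CDS peaks was 0.66 in WT and −0.63 in mir-486 KO of set 1, and 0.10 and 0.14 in set 2. The medians of CDS peaks of all genes were 0.68, 0.12, 0.21 and 0.18 in the same order. By genotype, the Ttn median was 0.38 ± 0.40 in WT and −0.25 ± 0.55 in mir-486 KO (SD, n = 2 libraries each), and the ranges overlapped. The 5′ UTR had 4 and 2 peaks in set 1 and 6 in each library of set 2, of which 0 were enriched.

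In the 3′ UTR, AGO2 signal above input lay near the stop codon in all 4 libraries. The 3′ UTR held 11 and 7 listed peaks in set 1 and 10 and 11 in set 2, with median log2 over input of −0.95, −0.80, −0.77 and −0.83. The medians of 3′ UTR peaks of all genes were 0.87, 0.61, 0.60 and 0.56. A stretch of 197 nt at chr2:76704744-76704940, which starts 94 nt and ends 290 nt after the last coding base, lay above input in all 4 libraries. Its highest peaks had 2.09 in WT and 0.77 in mir-486 KO of set 1, and 1.05 and 2.15 in set 2. No listed peak that began more than 290 nt after the last coding base was above input in any of the 4 libraries. None of the 52 seed words of the 6 families searched lay in the 3′ UTR, and all 52 lay in coding sequence.

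**Figure D2:**
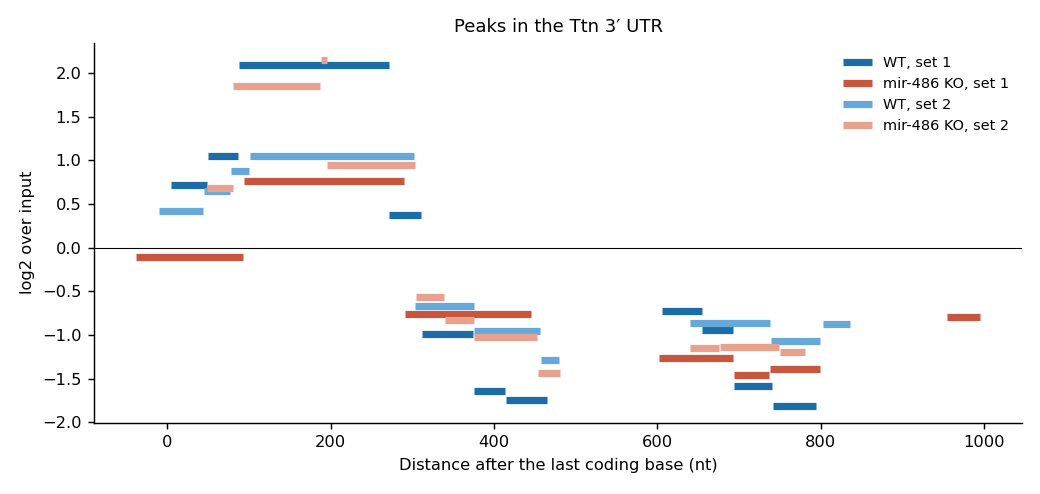
Listed peaks of the Ttn 3′ UTR, drawn from their first to their last base as distance after the last coding base (nt), against log2 over input, for the 4 libraries. Peaks between 94 and 290 nt lie above 0 in all 4 libraries, and all peaks that begin later lie under 0.

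Listed peaks were unevenly spread over alternative exons. Exons 48 to 201 are in Ttn-203 and absent from Ttn-201, a shorter transcript of 192 exons. Of the 95 exons from 48 to 142, 3 had no listed peak in any library. The run with the largest excess of exons without a peak, found from the peaks, was exons 143 to 199. Of its 57 exons, 49 had none, and the listed peaks covered 8.87% and 11.3% of their bases in WT and mir-486 KO of set 1 and 6.80% and 6.98% in set 2. Of the 146 exons from 202 to 347, 4 had none. Exon 46 (chr2:76907308-76909953), a 2646-nt exon in Ttn-201 that Ttn-205 lacks, held 0 listed peaks in all 4 libraries. Whether these exons are part of the Ttn RNA of TA muscle was not tested.

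Seed matches were then read along spliced Ttn-203 for 6 microRNA families. The 7-nt words were GGACCAA (miR-133), ACATTCC (miR-1 and miR-206), CTACCTC (let-7), TGGTGCT (miR-29), TGTTTAC (miR-30) and GTACAGG (miR-486), read on the transcript strand. The families had 22, 5, 6, 8, 4 and 7 matches. A match took the value of the listed peak over its middle base, or of the nearest peak within 25 nt.

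The miR-133 matches lay at high sites in every library. Of the 22, 21 had a listed peak in WT of set 1 and 22 in each of the other libraries. Their median log2 over input was 2.80 in WT and 0.98 in mir-486 KO of set 1, and 1.81 and 2.02 in set 2. The medians of all Ttn peaks were 0.65, −0.64, 0.09 and 0.14. In WT of set 1 19 matches lay above the Ttn median, and 21 did in each of the other 3 libraries. Between 12 and 13 matches lay above the 90th percentile of Ttn peaks in each library. The peak over the match was above 0 in all 4 libraries for 17 matches and above 1 for 11, and 10 matches had an enriched peak in at least 1 library.

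The matches varied widely among themselves. Of the 21 matches with a value in each library, mir-486 KO of set 1 was lowest at 21 and WT of set 1 highest at 19. The highest, in exon 334, had 4.36 in WT and 2.59 in mir-486 KO of set 1, and 3.43 and 3.23 in set 2. The match of exon 28 (word at chr2:76944689-76944695), near the 5′ end, had 2.78 and 2.11 in set 1 and 2.48 and 2.85 in set 2. Its values lay closer together than those of the other 4 matches that were above 2 in every library. At the other end, the match of exon 313 (word at chr2:76733873-76733879) had 0.53 and −0.63 in set 1 and −0.14 and −0.00 in set 2. The match of exon 105 (word at chr2:76868377-76868383) had −0.21 and −0.62 in set 1 and 0.46 and 0.47 in set 2. In the longest exon the 5 matches ranged from 0.87 to 3.32 in WT of set 1 and from 0.43 to 2.37 in WT of set 2. In 16 of the 22 matches the word began at the second base of a codon, and 15 of these followed a T. In 7 matches the word was followed by an A, the base opposite the first microRNA position in the strongest class of canonical sites.

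**Figure D3:**
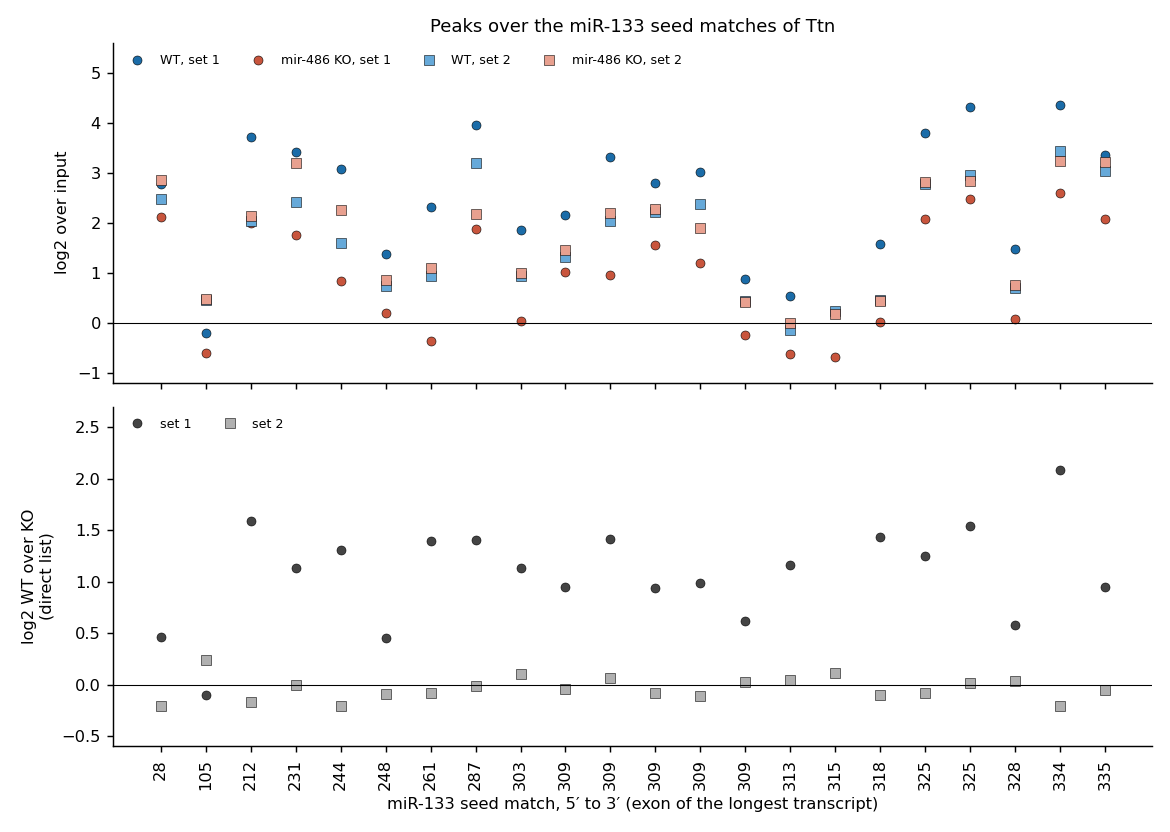
The 22 miR-133 seed matches of Ttn in transcript order, labelled by exon: above, the log2 over input of the peak at each match in the 4 libraries, and below, the authors' direct log2 WT over KO in each set. Exons 325, 334 and 335 are high in all 4 libraries. The direct values of set 1 reach 2.09, while those of set 2 stay between −0.21 and 0.24.

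The other families had lower medians, although the let-7 match of exon 334 was above every miR-133 match in WT of set 1 and in mir-486 KO of set 2. The 5 matches of miR-1 and miR-206 had listed peaks in all 4 libraries, all above the Ttn median, with family medians of 2.11 and 0.47 in set 1 and 1.35 and 1.32 in set 2. Their highest, in exon 326, had 3.25 and 1.67 in set 1 and 2.54 and 2.53 in set 2. The let-7 family, with a listed peak at 4 of 6 matches in WT of set 1 and at 5 elsewhere, had medians of 1.88 and 0.18 in set 1 and 1.10 and 1.04 in set 2, and its match in exon 334 had 4.87, 2.45, 3.31 and 3.34. That word lies near the miR-133 word of the same exon, so the values of these matches are not independent. The 8 matches of miR-29, of which 4 had a listed peak in WT of set 1 and 7 in the other libraries, had medians of 1.47 and 0.12 in set 1 and 0.25 and 0.24 in set 2. The 4 matches of miR-30 had 0.10 and −1.05 in set 1 and −0.23 and −0.24 in set 2, under the Ttn median in all 4 libraries.

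**Figure D4:**
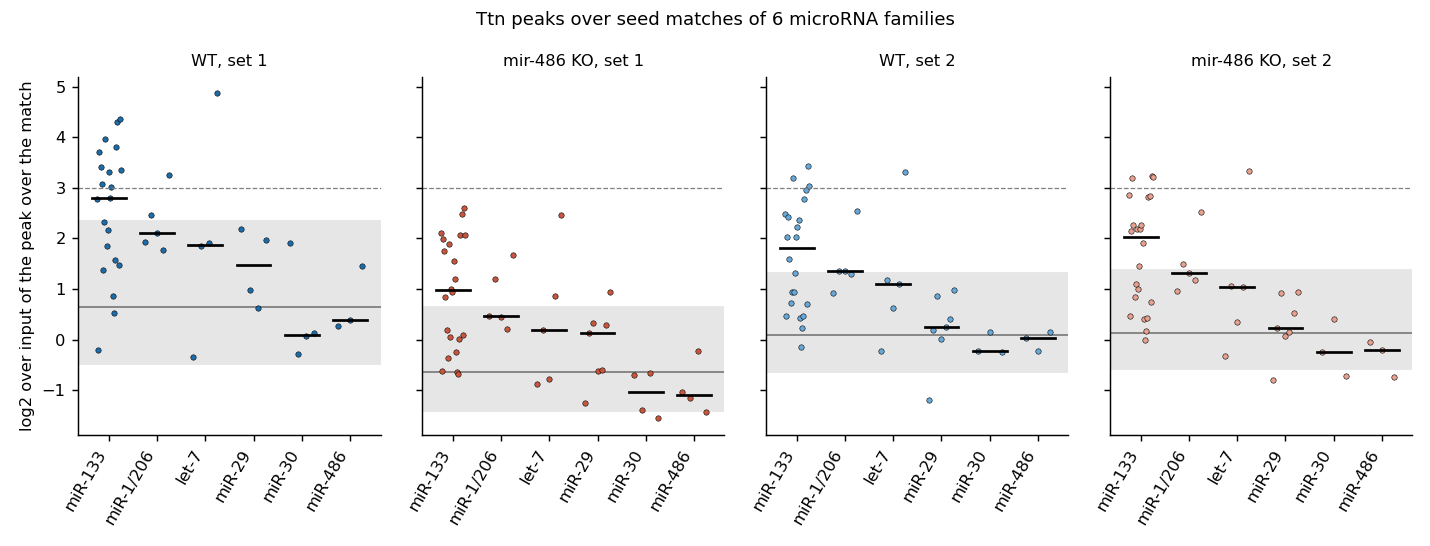
Log2 over input of the Ttn peak at each seed match of 6 microRNA families in the 4 libraries. Points are matches, black bars family medians, the grey line the median and the grey band the 10th to 90th percentile of all Ttn peaks, and the dashed line the threshold of 3. The miR-133 median lies above those of the other families and the miR-486 and miR-30 medians lie under the Ttn median in every panel.

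The miR-486 matches did not stand out in the total AGO2 libraries, where any microRNA can guide the binding. The miR-486-enriched libraries were not analysed here, so these values do not test the miR-486 targets that the study reports. Of the 7, 3 had a listed peak in WT and 4 in mir-486 KO of set 1, and 3 in each library of set 2. The family median was 0.38 in WT and −1.09 in mir-486 KO of set 1, and 0.03 and −0.20 in set 2, under the Ttn median in each library. The highest was in exon 309 (word at chr2:76745454-76745460), with 1.45 in WT of set 1 and 0.15 in WT of set 2, and no listed peak within 25 nt in either mir-486 KO library. Its direct log2 WT over KO was 0.91 in set 1 and 0.23 in set 2. The match of exon 266 (word at chr2:76779360-76779366) had 0.27 and −1.15 in set 1 and 0.03 and −0.05 in set 2. The match of exon 280 (word at chr2:76771159-76771165) had 0.38 and −0.23 in set 1 and −0.22 and −0.20 in set 2. The match of exon 50 (word at chr2:76901594-76901600) had −1.03 in mir-486 KO of set 1 and no listed peak elsewhere. The match of exon 340 (word at chr2:76714462-76714468) had −1.44 and −0.74 in mir-486 KO of set 1 and set 2. A further 2 matches in exon 309 had no listed peak in any library. These 2 sequences show the matches with the highest and the lowest value.
exon 309, word at chr2:76745454-76745460: cattcagcagttacagtGTACAGGttgg
exon 340, word at chr2:76714462-76714468: atcgccgatggactcaaGTACAGGattc
In all, 5 exonic Ttn peaks of each WT library held the word within 25 nt, against 5 and 4 in the mir-486 KO libraries of set 1 and set 2, and 0 of them were enriched.

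Counted by peaks, 17 of the 42 enriched Ttn peaks of WT in set 1 held the miR-133 word within 25 nt, as did 8 of 10 in WT and 7 of 10 in mir-486 KO of set 2. Of the enriched CDS peaks of other genes, 7.38% held it in WT of set 1, 11.9% in WT of set 2 and 12.7% in mir-486 KO of set 2. Among all listed Ttn peaks the shares holding it were 4.67% and 3.91% in WT and mir-486 KO of set 1 and 3.19% and 2.94% in set 2. In CDS peaks of all other genes the word was in 2.13%, 1.79%, 1.53% and 1.51%. The median log2 of Ttn peaks with the word was 3.08 against 0.59 without it in WT of set 1, and 1.48 against −0.66 in mir-486 KO of set 1. In set 2 it was 1.80 against 0.05 in WT and 2.19 against 0.11 in mir-486 KO. In CDS peaks of other genes the same medians were 1.68 against 0.68, 0.80 against 0.12, 1.47 against 0.21 and 1.35 against 0.16, so the word marked higher peaks outside Ttn as well. This was not particular to miR-133. Such peaks with the word of miR-1 and miR-206 had medians of 1.68, 1.12, 1.47 and 1.41 in the same order. Those with the words of let-7, miR-29 and miR-30 were also higher in each library, and those with the miR-486 word in each but mir-486 KO of set 2. Of the 205 words of 7 nt that lay under a listed Ttn peak in all 4 libraries at 10 or more places, GGACCAA had the highest median log2 in each library. The next in the mean over libraries was GACCAAA, which overlaps it by 6 letters. Adjoining listed peaks can hold the same word, so the counts of enriched peaks above are not counts of separate sites. With adjoining listed peaks merged, 23 merged peaks held an enriched peak in WT of set 1. In set 2, 4 did in WT and 5 in mir-486 KO. Peaks of neighbouring exons are not independent either, and these shares and ranks are a description. Of the 20 exons with an enriched peak, 9 held a miR-133 word, 1 a miR-1 and miR-206 word, 2 a let-7 word, 2 a miR-29 word, 0 a miR-30 word and 1 a miR-486 word. Over all 347 exons the counts were 17, 5, 5, 8, 4 and 5. These counts take no account of exon length, and longer exons have more room for a word and for an enriched peak. The longest exons, 309, 341 and 287, with 17106, 5437 and 2967 nt, are all among the 20. Exon 309, the longest, held words of 4 of the families. Of the 20 exons, 10 held no word of the 6 families, among them exon 324, which reached 3.77 in WT of set 1, and exon 272, which reached 3.68.

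WT and mir-486 KO were then compared in the authors' direct lists, which give the log2 fold of a peak's reads between the immunoprecipitated libraries of a set, with no input. In these lists a change in the amount of Ttn RNA, in the share of fibres that make it and in its AGO2 binding cannot be told apart. No Ttn peak passed a log2 of 3 with a −log10 p of 3 in any of the 4 lists, 0 of 664 and 843 in set 1 and 0 of 1411 and 1464 in set 2. Of all listed peaks, 0.469% passed in WT over KO and 0.179% in KO over WT of set 1, and 0.0192% and 0.0144% in set 2. At a log2 of 1, 135 Ttn peaks (20.3%) passed in WT over KO of set 1, against 4.85% of all listed peaks. In KO over WT of set 1, 18 (2.14%) passed, against 0.755%. In set 2, 0 and 2 (0.137%) passed, against 0.403% and 0.144%. The −log10 p threshold of 3 still applied and enters these shares. In WT over KO of set 1, 12.2% of all listed peaks had a log2 from 1.7 to 1.8, more than the 4.85% that passed. The median of all listed peaks in that list, 0.74, was above the 0.60 of Ttn. These shares thus do not show larger folds at Ttn.

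The set 1 excess in WT did not recur in set 2. At WT peaks, the median direct log2 WT over KO of Ttn was 0.60 in set 1 and 0.05 in set 2. The medians of all listed peaks were 0.74 and 0.30. At mir-486 KO peaks, the median log2 KO over WT was −0.37 in set 1 and −0.05 in set 2, against 0.72 and 0.27 for all listed peaks. The medians of all listed peaks were thus above 0 in both directions, and Ttn lay under them in both. The mean over the sets of the WT over KO median was 0.32 ± 0.39 (SD, n = 2), and it was −0.20 after the median of all listed peaks was taken off. At mir-486 KO peaks, the KO over WT median less that of all listed peaks was −1.09 in set 1 and −0.31 in set 2. Taking off the median of all peaks thus moved Ttn down in either direction. In set 2 the Ttn values were narrow: they ranged from −0.38 to 0.82, and the 10th and 90th percentiles were −0.14 and 0.24. In set 1 they ranged from −1.10 to 2.09.

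**Figure D5:**
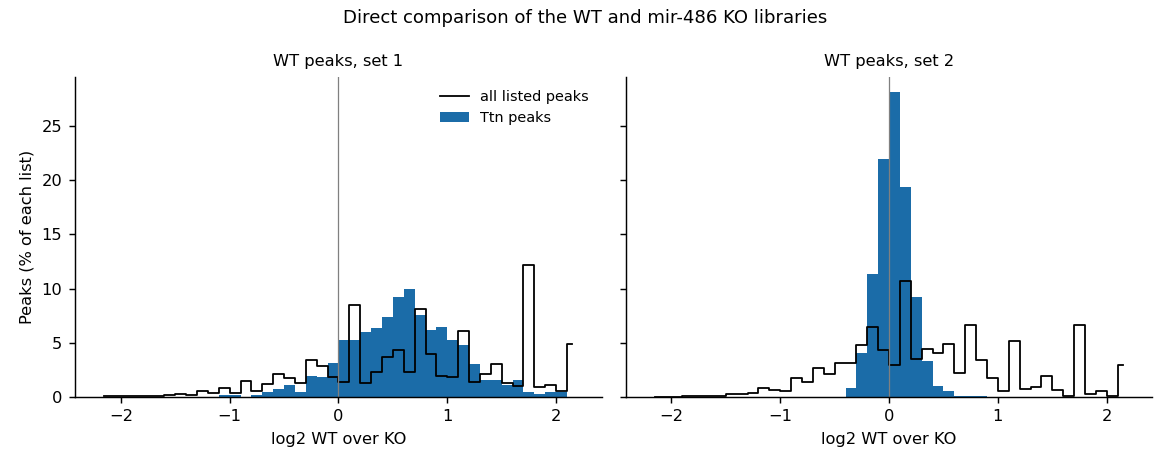
Share of peaks (percent of each list) by direct log2 WT over KO at WT peaks, in bins of 0.1 from −2.2 to 2.2, for Ttn (blue) and all listed peaks (black line), in each set. Ttn peaks centre on a median of 0.60 in set 1 and of 0.05 in set 2, and folds of other genes above 2.2 lie outside the plot.

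The tall sites showed the same contrast. In exon 334, the 5 peaks of the WT list had direct log2 WT over KO from 1.60 to 2.09 in set 1 and from −0.20 to −0.01 in set 2. In exon 325 they ranged from 0.87 to 1.68 in set 1 and from −0.08 to 0.11 in set 2. At the miR-133 matches the median direct value was 1.13 in set 1, above 0 at 20 of 21 matches, and −0.05 in set 2, above 0 at 8 of 22. Over exons of at least 100 nt, the Spearman correlation between the direct values of set 1 and set 2 was −0.13 (192 exons). The largest direct value toward mir-486 KO was 2.08 in set 1, in exon 135 (chr2:76850366-76850379), and 1.12 in set 2, in exon 125 (chr2:76856364-76856366). Exon 125 also held a KO over WT value of 1.55 in set 1. Both exons had no listed peak in either WT library, and their highest log2 over input was −0.86 in exon 135 and 0.58 in exon 125. The direct lists share their immunoprecipitated libraries with the lists over input, so these values are not independent of those above.

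Other genes gave the setting. Over the 4 libraries, the genes whose median log2 of exonic peaks was most like that of Ttn were Mypn, which encodes a titin-associated Z-disc and I-band protein, Pde4d, Gsn, Myo10 and Chd4, with root mean square differences from 0.13 to 0.19. Neb, which encodes nebulin, the giant ruler of the thin filament, had medians of 0.92 and −0.72 in set 1 and −0.13 and −0.09 in set 2. Ttn and Neb thus both had their lowest median in mir-486 KO of set 1. Of the 32 partner and sarcomere genes, 21 had an enriched peak in WT and 1, Neb, in mir-486 KO of set 1, and 9 and 8 in set 2. Of all genes with an exonic peak, 14.7%, 3.89%, 9.56% and 9.37% had one. In the direct lists, 7 of the 32 had a peak past the thresholds in WT over KO and 3 in KO over WT of set 1, and 0 in either direction of set 2. The share among all genes was 2.41%, 0.586%, 0.181% and 0.0946% in the same order.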

How the data were processed

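Mouse TA muscle was assayed by chimeric AGO2 eCLIP. The authors trimmed reads (cutadapt), removed duplicates with UMI-tools, aligned with STAR to GRCm38, ran CLIPper on single immunoprecipitated libraries, without pooling, and set each peak against a size-matched input or the immunoprecipitated library of the other genotype. Each peak was deposited with a log2 fold and the −log10 of a p-value (at most 400; 0 where the fold was under 0). Read counts are not in the lists, so depth is unknown. Peak folds and p-values are the authors' throughout, and no new p-value was computed.

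Genes and exons came from GENCODE M21 (the labels name a later release of the same assembly), and regions were read at peak midpoints, with CDS before UTR before intron. Exon means are over bases under a listed peak. Sequences came from RefSeq, GRCm38.p6. The rule for named sites took the 2 highest peaks per library, enriched UTR peaks and direct peaks past the thresholds (both 0), peaks with a miR-486 seed match, the longest, first and last exons and the 5 exons with most enriched peaks. Other sites, the miR-133 matches included, were chosen after their values were seen. Similar genes had the smallest root mean square difference from Ttn in median log2. The members and gene lists were chosen with earlier results of these data known. The miR-486-enriched libraries were not analysed here. Alternatives changed the thresholds, the region rule, the overlap or the seed word, merged adjoining peaks or left out a set. Functions were tested on simulated peaks. Python 3.11.15, pandas 2.3.3 and scipy 1.17.1 were used.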

Additional observations from a re-analysis of the deposited data

How the results depend on the processing

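Of 67 alternative values for 15 results, 43 stayed within the spread between sets, within the counting interval or, for counts, within 1.5 times. For a mean over 2 sets, leaving out a set stays within their SD by construction unless the sign turns. Those values are included in the 43 and are no measure of stability. Alternatives for the miR-133 matches were chosen after seeing the data. No paired analysis was possible because the results come from no test. The values of each set, which pair its WT and KO libraries, are given in their place. The share of Ttn peaks in introns rose to 1.30% (WT) and 1.13% (KO) with the region read at the 5′ end, was 0.403% (WT) on the longest transcript, and 0.0196% (KO) as a share of covered bases. The median of CDS peaks was 1.14 (WT) and 1.01 (KO, from −0.25) for peaks with a −log10 p of at least 3, which removes all peaks under input, and in KO it was 0.14 without set 1 and −0.63 without set 2. The direct median at WT peaks turned to −0.20 less the median of all peaks. Direct peaks numbered 135 and 20 (WT over KO, KO over WT) at log2 1. Recurrence of WT set 1 in set 2 was 11.9% for an overlap of 50%, 46.6% at log2 1 and 100% against listed peaks; that of WT set 2 in set 1 was 50% for an overlap of 50%; that of KO set 2 in set 1 was 45.4% at log2 1 and 90% against listed peaks. Peaks with the miR-486 word numbered 5 and 4 (WT, KO) without extension, 31 and 38 for the 6-nt word and 0 when enriched, against 10 and 9. The miR-133 median fell to 1.20 (WT) and 0.53 (KO) for the 6-nt word. Causes were not tested. Without set 1 or set 2 the ratio of enriched peaks ranged from 0.00 to 3.81.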
